A study of Mus musculus with 4 samples.

Results

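DNA methylation machinery was represented by 7 genes: the DNA methyltransferases Dnmt1, Dnmt3a and Dnmt3b, the cofactor Dnmt3l, the maintenance factors Uhrf1 and Hells, and the methyl-CpG binding protein Mbd2. Every non-control probe carrying one of these gene names was used, which gave 11 of the 41174 different non-control probes of the array. All 11 were well above background on all 4 arrays, were read from 1 spot per array, and passed the filter on dim probes, which 27404 probes passed in the series. The arrays measured total RNA, as Cy3-labelled cRNA in a single colour, from 2 samples of B220+ splenocytes of female C57BL/6N mice and from 2 B-cell lymphoma lines, also labelled C57BL/6N and female, that had been established independently from mice transgenic for the dopamine receptor 3. Each line was hybridised once, the age of the mice and the number of mice behind a sample are not given in the sources used here, and the groups differ at once in malignancy, culture and transgene, which cannot be told apart.

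In mammals the methyl group on cytosine is placed at CpG dinucleotides by DNMT3A and DNMT3B and copied onto the new strand after replication by DNMT1. UHRF1 recognises hemimethylated CpG and brings DNMT1 to it, and HELLS is a chromatin remodeller needed for methylation of repeats. DNMT3L is a catalytically inactive partner of the DNMT3 enzymes, best known from germ cells, and MBD2 binds methylated CpG and recruits the NuRD repressor complex. In the spleen most resting B cells are not replicating, whereas maintenance factors are typically made by cells in S phase.

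All 4 arrays lay on 1 slide and were scanned in 1 run, so neither differed between groups. The number of probes well above background ran from 25067 to 27449 per array and no spot was saturated. Arrays differed in brightness, with a 75th percentile of 514.1 on the second splenocyte array and 1078 to 1315 on the others. Levels are therefore given below as the log2 processed signal minus the log2 75th percentile of the same array, so that 0 stands for the 75th percentile. Such levels, and sums of them over a list, are compared between arrays and not between probes or lists. The 8 B cell markers examined, among them Ptprc, whose product carries the B220 epitope, were well above background on every array, and 6 of them were lower in the lines. Their summed scaled signal was 555 and 698 in the splenocytes and 302 and 294 in the lines. T cell, myeloid and erythroid markers were also found in the splenocytes: the summed scaled signal of 7 T cell markers was 9.97 and 9.75 there and 6.05 and 7.44 in the lines. Most of the splenocyte sums came from Cd2, at log2 levels of 3.00 and 3.01. Most of the line sums came from Cd3g, at 2.35 and 2.62, so each sum rests mainly on 1 gene. Of the T cell markers, Cd3g was called higher in the lines and 4 were called lower, 2 of which, Cd8a and Thy1, were not well above background there and so were tested only through the splenocytes. The 7 myeloid markers summed to 15.9 and 10.4 in the splenocytes and to 35.4 and 35.7 in the lines. Nearly all of the line sums came from Adgre1, at log2 levels of 5.14 and 5.16 there. Adgre1 was called higher in the lines and the other 6 lower. Of these 6, Lyz1, Lyz2 and S100a8 were not well above background in the lines and so were tested only through the splenocytes. Only 2 myeloid markers were well above background on all arrays, 1 called higher and 1 lower. The 3 erythroid markers tested summed to 1.88 and 1.87 and to 0.348 and 0.247, with Alas2 not well above background in the lines and so tested only through the splenocytes. Over all tested genes, each by its brightest probe, 30.8% were called higher in the lines and 32.7% lower. The part of these other cells in the results below was not tested, and in such bulk RNA fewer cells of a type and less RNA per cell cannot be told apart.

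The comparison addressed expression in these B-cell tumours relative to B220+ cells of the normal spleen. The maintenance genes Uhrf1, Hells and Dnmt1 were higher in both lines, and Dnmt3b and 2 of the 3 Dnmt3a probes did not pass the test. The remaining Dnmt3a probe, the Dnmt3l probe and 1 of the 2 Mbd2 probes were lower. The call of Dnmt3l was lost under 9 of 15 alternatives of processing. By limma at an adjusted p under 0.05, over all 27404 probes tested, 4 of the 11 probes (36.4%) were called higher in the lines and 3 (27.3%) lower. Of all tested probes, 64.8% were called, 32.3% higher and 32.5% lower, so the members' shares lie near the background and do not set them apart as a group. Of the called probes 49.9% were higher, and 64.0% after centring each array on its median, which moved the median difference by 0.41. The groups did not overlap at 10 of the 11 probes, 5 with the lines above and 5 with the lines below. This held for 85.6% of all tested probes, 42.7% above and 42.9% below. The median difference was 0.18 over the members and -0.01 over all tested probes. Nothing in the labels says that the splenocyte samples came from separate mice, so the p-values reflect how these arrays vary, and that variation may be technical.

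**Figure D1:**
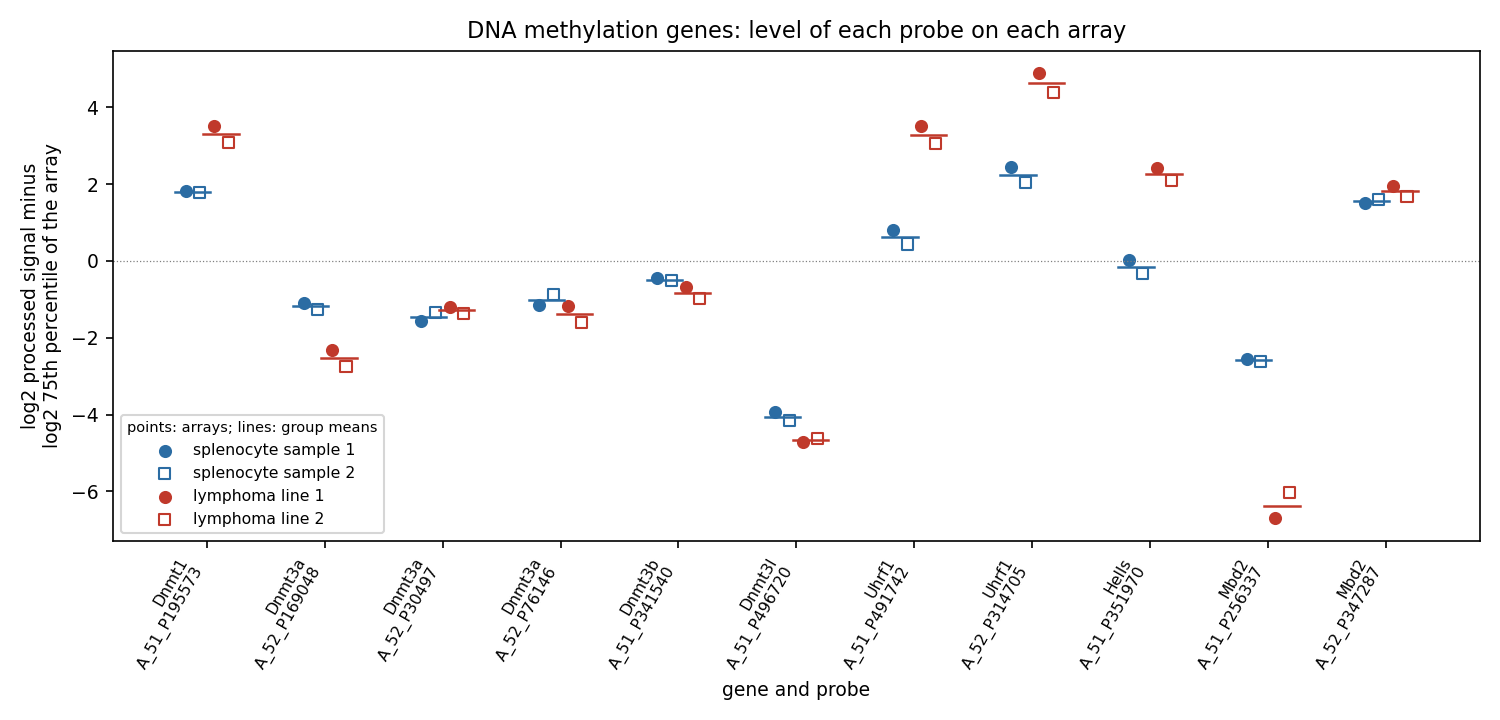
Level of each of the 11 probes on each array, as the log2 processed signal minus the log2 75th percentile of the array (vertical axis), by gene and probe (horizontal axis). Blue marks the 2 splenocyte samples, red the 2 lymphoma lines, and short lines the group means. The red points of Uhrf1, Hells and Dnmt1 lie above the blue ones, and those of Mbd2 probe A_51_P256337 lie 3.41 or more below them.

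Uhrf1, which reads hemimethylated CpG, showed the largest increase among the member probes. Its probe A_51_P491742 (mm8, chromosome 17, 55956840 to 55956899) lay at 0.80 on splenocyte array 1, 0.44 on splenocyte array 2, 3.50 in line 1 and 3.06 in line 2. Both lines were above both splenocyte samples, with a gap of 2.26 between the groups. The difference was 2.66 ± 0.24 on the log2 scale (SE, n = 2 arrays against 2; 95% interval 2.03 to 3.29), a 6.33-fold increase with an adjusted p of 0.00128 by limma. Its other probe, A_52_P314705 (55956943 to 55957002), starts 103 bases away and read 2.44 and 2.04 in the splenocytes and 4.89 and 4.38 in the lines. This gave 2.40 ± 0.26 (SE; 5.27-fold; adjusted p = 0.00203). The 2 probes thus moved alike in direction, and their changes differed by 0.26 (95% interval -0.05 to 0.58; adjusted p = 0.127, over all pairs of probes sharing a gene name).

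Hells, the remodeller, changed by nearly the same amount. Its probe A_51_P351970 (mm8, chromosome 19, 39030568 to 39030627) lay at 0.02 and -0.32 in the splenocytes and at 2.41 and 2.08 in the lines. The groups did not overlap, and the difference was 2.40 ± 0.21 (SE; 95% interval 1.83 to 2.97; 5.28-fold; adjusted p = 0.00126). Of all tested probes, 6.81% had a larger difference than Hells and 5.45% a larger one than the first Uhrf1 probe.

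Dnmt1, the maintenance methyltransferase, was higher by a smaller amount. Its single probe, A_51_P195573 (mm8, chromosome 9, 20657931 to 20658299, a span of 369 bases that crosses an intron), lay at 1.81 and 1.77 in the splenocytes and at 3.52 and 3.07 in the lines. Both lines were above both splenocyte samples by at least 1.26. The difference was 1.50 ± 0.21 (SE; 95% interval 0.95 to 2.06; 2.84-fold; adjusted p = 0.00401), and 15.0% of tested probes had a larger one. The calls of Uhrf1, Hells and Dnmt1 held under each of the processing alternatives in which their probe was tested, including without any one array.

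**Figure D2:**
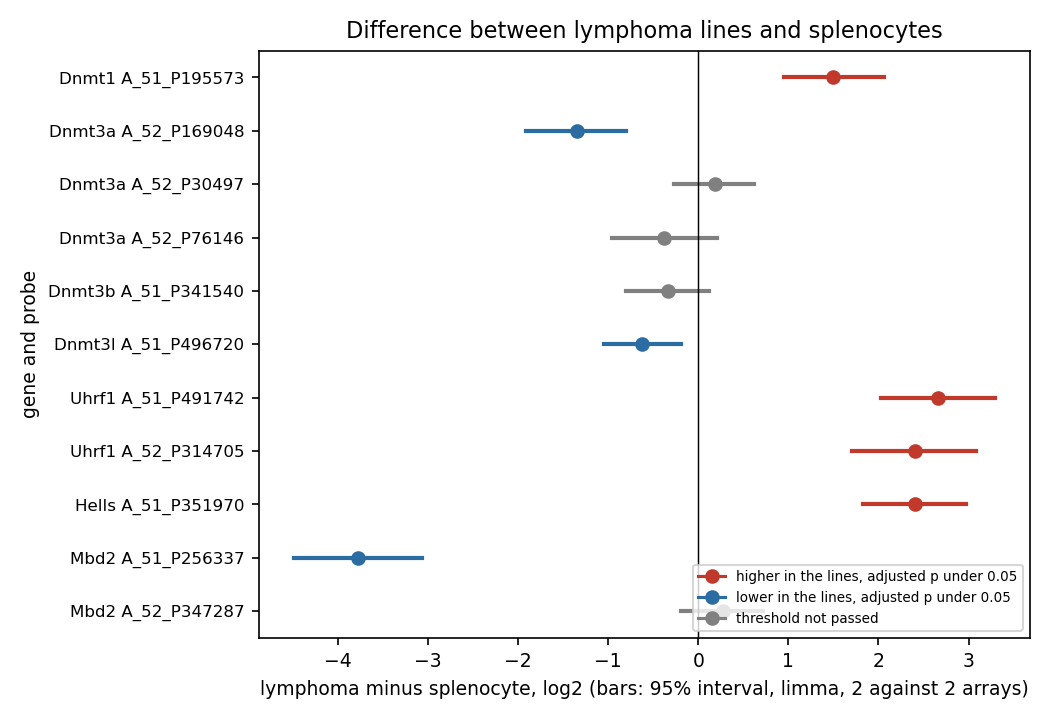
Lymphoma minus splenocyte difference on the log2 scale (horizontal axis) for each of the 11 probes (vertical axis), with the 95% interval of the limma fit as a bar. Red marks probes called higher, blue probes called lower and grey those that did not pass; the intervals of Uhrf1, Hells and Dnmt1 lie wholly above 0.

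Markers of dividing cells moved with these 3 genes. All 15 of the 15 listed markers (Mki67, Top2a, Pcna, 6 Mcm genes, Rrm1, Rrm2, Tyms, Ccna2, Ccnb1 and Lig1) were called higher in the lines, by 1.25 to 3.45 on the log2 scale, with a median of 1.93. Among all tested genes 30.8% were called higher. The summed scaled signal of the 15 markers was 214 and 175 on the splenocyte arrays, 763 in line 1 and 574 in line 2. Taken against the mean log2 level of the 15 markers on the same array, Uhrf1 (A_51_P491742) lay at -2.09 and -2.14 in the splenocytes and at -1.56 and -1.63 in the lines. Hells lay at -2.88 and -2.91 and at -2.65 and -2.61, and Dnmt1 at -1.08 and -0.81 and at -1.54 and -1.63. On this scale the lines thus differed from the splenocytes by 0.52 for that Uhrf1 probe, 0.26 for the other, 0.26 for Hells and -0.64 for Dnmt1. These values do not change when an array is scaled by a constant, though quantile normalization can move them. They carry no test, and the part of cell division in the increases was not tested.

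Arrays within each group differed too. All 4 probes of Uhrf1, Hells and Dnmt1 were lower in line 2 than in line 1, by 0.33 to 0.50 on the log2 scale, and so were all 15 dividing-cell markers (-0.54 to -0.13). Over the 11 member probes 9 were lower in line 2, against 50.5% of all tested probes, and the median size of the difference between the lines was 0.413, against 0.234 for all tested probes. The splenocyte arrays differed in a like way. Sample 2 was below sample 1 at Hells (-0.34), at the Uhrf1 probes (-0.36 and -0.40) and at Dnmt1 (-0.04), and all 15 dividing-cell markers were lower there as well (-0.55 to -0.12). Over the members 8 of 11 probes were lower in splenocyte sample 2, against 49.3% of all tested probes, with a median size of 0.215 against 0.164. A shift of this kind at Uhrf1, Hells and the dividing-cell markers was thus seen within both groups.

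Promoter windows of Uhrf1 and Hells are shown because these genes were higher together in both lines. RefSeq windows were at hand for 6 of the 7 genes, 13 windows in all, of which the 250 bases before the start site were searched on both strands for TTTCCCGC, TTTCGCGC, TTTGCCGC and TTTGGCGC, which are forms of the site bound by E2F factors. A match was found in 1 window each of Dnmt1, Uhrf1 and Hells, and in no window of Dnmt3a, Dnmt3b or Dnmt3l. Over all RefSeq genes with a window 2.16% had a match, and of all windows 1.86%. Each motif searched holds a CpG, and the share among windows of like CpG content was not computed. The matching windows of Uhrf1 and Hells are given 5′ to 3′ on the gene's strand, with the match in capitals (GRCm38.p6).
Uhrf1 (chr17:56304063-56304312, plus strand): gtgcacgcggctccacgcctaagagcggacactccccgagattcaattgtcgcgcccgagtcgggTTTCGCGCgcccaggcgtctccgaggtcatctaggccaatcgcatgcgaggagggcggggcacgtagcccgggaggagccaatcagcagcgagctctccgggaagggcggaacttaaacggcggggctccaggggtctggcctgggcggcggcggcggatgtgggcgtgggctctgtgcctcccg
Hells (chr19:38930740-38930989, plus strand): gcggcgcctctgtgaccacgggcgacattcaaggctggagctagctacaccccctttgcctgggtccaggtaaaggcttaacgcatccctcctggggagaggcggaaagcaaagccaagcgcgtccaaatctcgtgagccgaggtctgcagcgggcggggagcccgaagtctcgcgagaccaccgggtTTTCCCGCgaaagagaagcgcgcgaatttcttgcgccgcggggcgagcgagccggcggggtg
The match ends 178 bases before the start site in Uhrf1, 55 in Hells and 212 in Dnmt1, where it is on the opposite strand. The Dnmt1 match lies before the most downstream of 3 RefSeq starts, in a window (chr9:20952624-20952873) that runs from 106 to 355 bases after another start and so holds sequence downstream of it. The window of that other start (chr9:20952980-20953229) has no match. The Uhrf1 window likewise lies 726 to 975 bases after another Uhrf1 start, whose own window has no match. These windows, in the order Uhrf1, Hells and Dnmt1, hold 30, 28 and 26 CpG dinucleotides, against a median of 6 over all windows. The other Uhrf1 window has 10 CpG and the other Dnmt1 windows 7 and 2, whereas the Dnmt3a windows have 38, 40 and 15, that of Dnmt3b 21 and those of Dnmt3l 5, 4 and 3. A match is a description of the letters and says nothing about binding in these cells.

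The de novo methyltransferase Dnmt3a gave different values at its 3 probes. Probe A_52_P169048 (mm8, chromosome 12, 3908241 to 3908300) lay at -1.09 and -1.27 in the splenocytes and at -2.33 and -2.74 in the lines. Both lines were below both splenocyte samples, and the signal fell by 1.35 ± 0.21 on the log2 scale (SE; 95% interval -1.91 to -0.80; 2.56-fold; adjusted p = 0.00530). Probe A_52_P30497 (3912604 to 3912663) lay at -1.56 and -1.34 in the splenocytes and at -1.19 and -1.36 in the lines. The groups overlapped there, with a difference of 0.18 (95% interval -0.27 to 0.62; adjusted p = 0.396). Probe A_52_P76146, whose span of 782 bases (3906882 to 3907663) crosses an intron, lay at -1.14 and -0.87 and at -1.18 and -1.60. Its difference was -0.38 (95% interval -0.96 to 0.21; adjusted p = 0.191), and it was 0.03 after centring on the median.

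Differences between probes of 1 gene on the same array do not depend on how arrays are scaled by a constant, so they were compared across all 13064 pairs of tested probes sharing a gene name, of which 49.5% were called. Probe A_52_P169048 of Dnmt3a minus A_52_P30497 was 0.47 and 0.07 in the splenocytes and -1.14 and -1.38 in the lines. The change was -1.53 ± 0.20 (SE; adjusted p = 0.0114), which did not pass without splenocyte replicate 1 (-1.33, adjusted p = 0.0607) or splenocyte replicate 2 (-1.73, adjusted p = 0.0535). Against A_52_P76146 it was -0.98 ± 0.20 (adjusted p = 0.0267), a call that did not hold without any one of the 4 arrays (adjusted p 0.0529 to 0.0804). Between A_52_P30497 and A_52_P76146 the change was 0.55 ± 0.14 (SE; adjusted p = 0.0456), likewise lost without any one array (adjusted p 0.0586 to 0.167), with normexp (0.0662) and with a replicate block (0.0983). All 3 probes are assigned by the array to transcript variant 1, NM_007872. The array lists the RefSeq transcript NM_153743 for A_52_P30497 and A_52_P76146 and not for A_52_P169048, for which it lists the cDNA AK013096 as well.

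**Figure D3:**
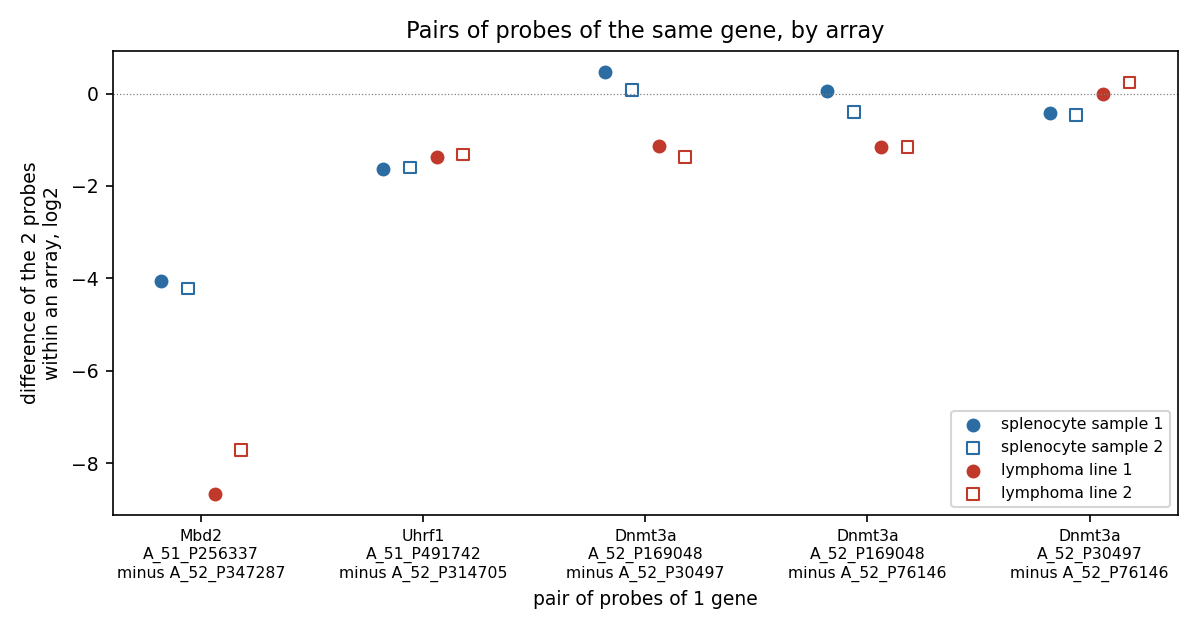
Difference between 2 probes of 1 gene within each array, on the log2 scale (vertical axis), for the 5 pairs among the member probes (horizontal axis). Blue marks the splenocyte samples and red the lines. The red points lie below the blue ones for Mbd2 and for the pairs of A_52_P169048, and above them for the third Dnmt3a pair and for Uhrf1, whose change did not pass.

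Dnmt3b, the other de novo enzyme, did not pass the test. Its probe A_51_P341540 (mm8, chromosome 2, 153378788 to 153378847) lay at -0.45 and -0.52 in the splenocytes and at -0.68 and -0.98 in the lines. The lines were below the splenocytes by a gap of 0.16, and the difference was -0.34 ± 0.17 (SE; 95% interval -0.80 to 0.12; adjusted p = 0.148). After centring on the median it was 0.07.

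Dnmt3l, the inactive partner of the DNMT3 enzymes, was dim. Its probe A_51_P496720 (mm8, chromosome 10, 77466496 to 77466555) gave unscaled processed signals of 70.5 and 28.7 in the splenocytes and 42.8 and 53.1 in the lines. After scaling it lay at -3.93 and -4.16 and at -4.71 and -4.63, so that both lines were below both splenocyte samples. The signal fell by 0.62 ± 0.16 (SE; 95% interval -1.05 to -0.19; 1.54-fold; adjusted p = 0.0262). This call was lost under 9 of 15 alternatives: without splenocyte replicate 1 (adjusted p = 0.150), splenocyte replicate 2 (0.0695), lymphoma replicate 1 (0.0743) or lymphoma replicate 2 (0.0539), with quantile normalization (0.256), centring on the median (0.335), no filter on dim probes (0.0741), an intensity trend in the variance (0.0634) or a replicate block (0.0537). The lowest adjusted p among the alternatives was 0.0153 and the highest 0.335.

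The 2 probes of Mbd2, the methyl-CpG reader, went apart. Probe A_52_P347287 (mm8, chromosome 18, 70706122 to 70706181), assigned to the RefSeq mRNA, lay at 1.50 and 1.60 in the splenocytes and at 1.96 and 1.68 in the lines. Its difference of 0.27 did not pass (95% interval -0.19 to 0.72; adjusted p = 0.231), and was called only after centring on the median among the alternatives tried (0.67, adjusted p = 0.0419). Probe A_51_P256337 (70719681 to 70719740), which starts 13559 bases further along and is assigned to a partial coding sequence, AF072244, lay at -2.55 and -2.62 in the splenocytes and at -6.70 and -6.03 in the lines. There the signal fell by 3.78 ± 0.27 on the log2 scale (SE; 95% interval -4.49 to -3.07; 13.8-fold; adjusted p = 0.000754), and 4.98% of tested probes had a lower value. The processed signals behind it were 184 and 83.8 in the splenocytes and 10.8 and 20.1 in the lines, the lowest being 0.66 log2 units above the dimmest spot well above background on its array. With normexp background correction the difference was -2.06, still called. The level of A_51_P256337 minus that of A_52_P347287 on the same array changed by -4.05 ± 0.37 from splenocytes to lines (SE; adjusted p = 0.00634), which was lost without splenocyte replicate 1 (adjusted p = 0.0596) or splenocyte replicate 2 (0.0594) and was -2.33 with normexp.

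**Figure D4:**
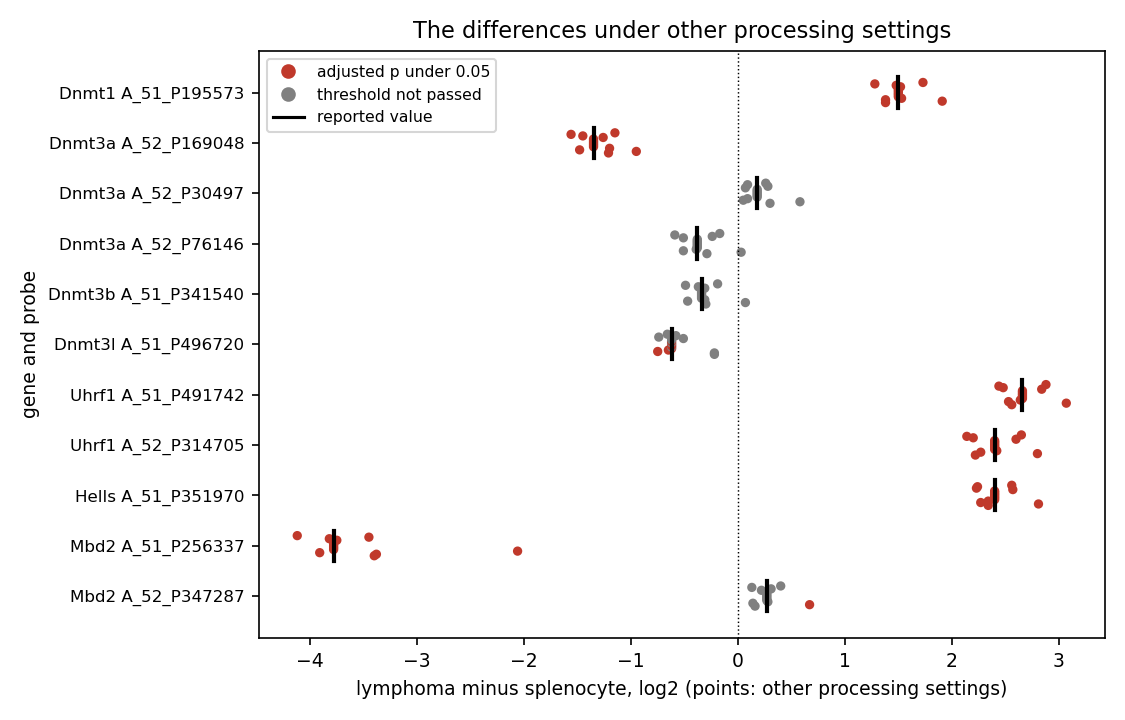
Lymphoma minus splenocyte difference on the log2 scale (horizontal axis) of each probe (vertical axis) under each of the other processing settings, as points, with the reported value as a black line. Red points passed an adjusted p of 0.05. Those of Uhrf1, Hells, Dnmt1, Dnmt3a probe A_52_P169048 and Mbd2 probe A_51_P256337 are all red, while most points of Dnmt3l are grey.

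The genes whose 4 values were most like a member's were taken by the Euclidean distance between centred log2 values over the 4 arrays, among 22749 probes well above background on all of them. For Uhrf1 (A_52_P314705) these were Mcm5, a subunit of the replicative helicase (0.057), Efna4, an ephrin (0.070), and Asf1b, a histone chaperone (0.078). For Hells they were Ung, the uracil-DNA glycosylase (0.030), Tfdp1, the partner of E2F factors (0.047), and 2700081O15Rik (0.066). For Dnmt1 they were Snrpb2 (0.027), Rrs1 (0.032) and Knop1 (0.037). With 4 arrays in 2 groups many probes come close: 159 lay within 0.3 of Uhrf1, 271 of Hells and 781 of Dnmt1.

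Related genes were described by lists, each gene by its brightest tested probe. Of 18243 genes so represented, 63.4% were called, 30.8% higher and 32.7% lower, with a median difference of -0.04. Partners of maintenance methylation were mostly higher: of 10 tested 6 rose and 2 fell, with a median of 1.06. Among those that rose, Pcna and Lig1 are also dividing-cell markers, read from the same probes, and so are not separate observations. Hdac2, a histone deacetylase, rose 4.48-fold, Trim28, a corepressor that protects imprints, 3.94-fold and Pcna, the replication clamp, 3.82-fold. Dmap1, a DNMT1 binding protein, fell 1.72-fold and Usp7, a deubiquitinase that acts on UHRF1 and DNMT1, fell 1.49-fold; neither was called after centring on the median. Neither Zfp57 nor Dppa3 was bright enough to be tested.

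Genes that supply the methyl donor S-adenosylmethionine and its folate cycle were mostly higher too. Of 16 tested 9 rose and 1 fell (median 1.06), beside 30.8% and 32.7% of all tested genes. Mthfd2, a mitochondrial folate enzyme, rose 20.5-fold, Ahcyl2, a relative of the hydrolase, 13.0-fold and Shmt1, a serine hydroxymethyltransferase, by 3.25 on the log2 scale. Ahcy, which removes the inhibitory product S-adenosylhomocysteine, lay at 1.62 and 1.57 in the splenocytes and at 4.46 and 4.04 in the lines (6.28-fold; adjusted p = 0.000873). Mat2a, which makes the donor in these cells, differed by 0.04 (adjusted p = 0.838), and Mat2b, its regulatory subunit, fell 1.59-fold, a call lost after centring on the median. Ahcy and Mat2a were picked for mention after their values were seen. Trdmt1, which resembles the DNMT enzymes and methylates tRNA, differed by -0.31 (adjusted p = 0.138).

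Other methyl-CpG readers and their family relatives, the latter including Mbd3, Mbd5 and Mbd6, went both ways. Of 10 tested, 3 rose, 3 fell and 4 did not pass (median -0.07), beside 30.8% called higher and 32.7% lower over all tested genes. Mbd3, the NuRD subunit related to Mbd2, rose 3.58-fold, Zbtb38 1.61-fold and Mbd1 1.36-fold, although another Mbd1 probe was called lower. Zbtb4, a zinc finger reader, lay at 3.43 and 3.70 in the splenocytes and at -0.50 and 0.29 in the lines, a 12.7-fold fall (adjusted p = 0.00118). Mbd6 fell 2.67-fold and Uhrf2, the paralogue of Uhrf1, 2.36-fold, the opposite direction to Uhrf1. Mbd4 (0.06), Mbd5 (-1.10) and Zbtb33 (-0.00) did not pass, but a second Zbtb33 probe was called lower. Normexp called 1 gene of this list higher in place of 3, and quantile normalization and the percentile over bright probes each called 2. The median of the list turned to 0.34 after centring on the median.

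Genes of oxidation and removal of the mark also went both ways, with 4 higher, 2 lower and 6 not passing of 12 (median -0.03, or 0.37 after centring on the median). These counts stand beside 30.8% higher and 32.7% lower over all tested genes. Tdg, the glycosylase that excises oxidised methylcytosine, rose 3.83-fold, and the base excision genes Apex1, Xrcc1 and Smug1 rose 3.23-fold, 1.93-fold and 1.52-fold. Tet3, a methylcytosine dioxygenase, fell 2.52-fold, and Gadd45g lay at 4.69 and 5.10 in the splenocytes and at -0.21 and 0.12 in the lines, a 30.8-fold fall (adjusted p = 0.000314). Tet1 (0.37), Tet2 (0.02), Gadd45a (-0.52), Gadd45b (-0.09) and Apobec1 (-0.23) did not pass, though 1 further Tet2 probe was called lower.

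Of 14 genes of the NuRD and related repressor complexes 4 rose and 1 fell (median 0.15, or -0.04 with quantile normalization), where 30.8% of all tested genes rose and 32.7% fell. Hdac2 and Mbd3 are named above, Rbbp7 rose 3.39-fold, and Chd3, a helicase of NuRD, fell 1.87-fold, a call that was lost after centring on the median. Of 14 genes of histone methylation linked to DNA methylation 7 rose and 5 fell (median 0.62). Cbx5, which encodes HP1 alpha, rose 5.12-fold, Kdm2b, a CpG island reader, 3.18-fold and Suv39h1, a histone H3 lysine methyltransferase, 3.06-fold. Smchd1, a factor of X inactivation, fell 2.26-fold, Kdm2a 1.95-fold and Nsd1 1.67-fold. After centring on the median 2 of the 14 were called lower.

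**Figure D5:**
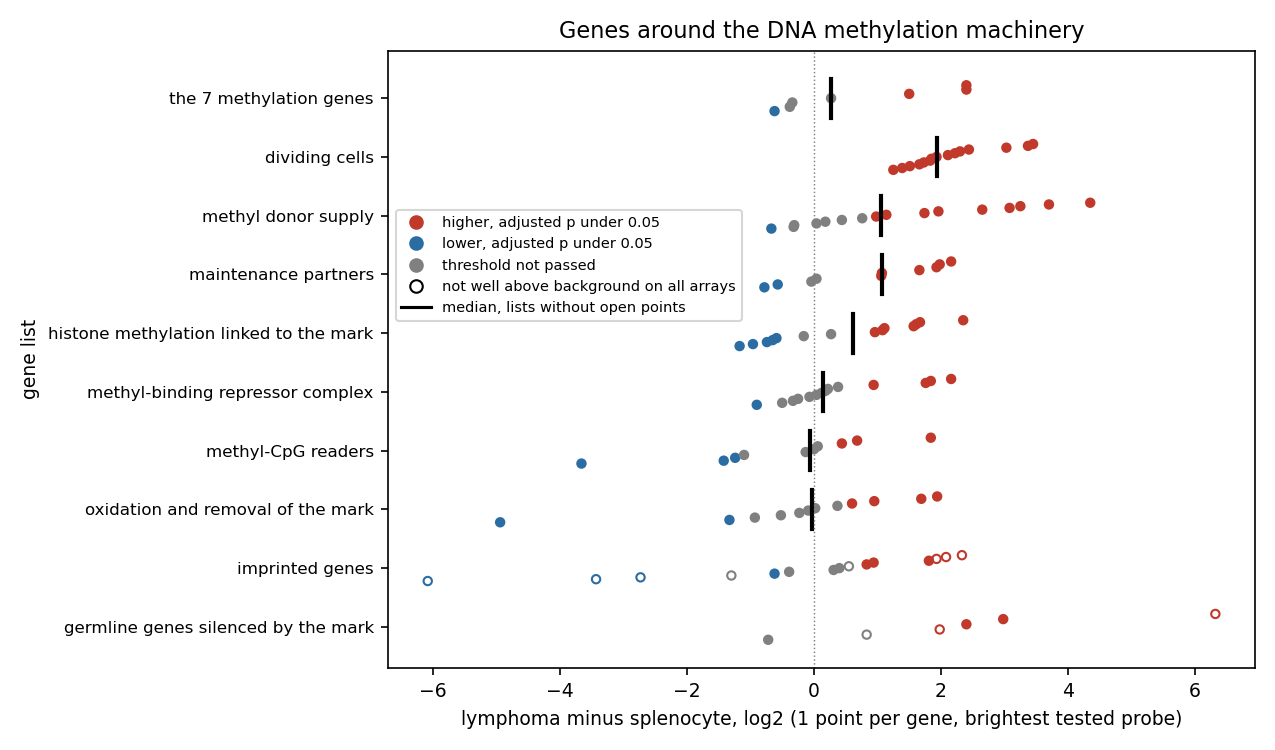
Lymphoma minus splenocyte difference on the log2 scale (horizontal axis) of the tested genes of each list (vertical axis), 1 point per gene at its brightest tested probe. Red points were called higher and blue ones lower, grey ones did not pass, open ones were not well above background on all arrays, and black lines are medians of the lists without open points. All 15 dividing-cell genes lie to the right of 0, whereas the genes of the reader list and the removal genes lie on both sides.

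Genes known to be silenced or marked by DNA methylation were looked at last, since the arrays hold no methylation measurement. Of 18 germline genes 12 were too dim to be tested on any probe. Of the 6 tested, Rhox5, Taf7l and Dpep3 were well above background only in the lines, and so could pass the filter only by being higher there. For that reason no count or median over the 6 is given, and no test result for those genes. The other 3 were well above background on all arrays, and 2 of them were called higher by limma, as were 30.8% of all tested genes. Rhox5, an X-linked homeobox gene, was not well above background in the splenocytes and lay at -0.81 and -2.80 in the lines, at least 30.7-fold higher. Such a bound sets the bright group's mean against the mean of the larger of the probe's own level and the lowest level well above background on each dim array. The bound was at least 1.31-fold for Taf7l and at least 1.24-fold for Dpep3. Of the genes measured on all arrays, Piwil2, a piRNA pathway protein, rose 7.90-fold and Brdt, a testis bromodomain protein, 5.28-fold, while Ddx4 (-0.72) did not pass. In the splenocytes Piwil2 lay at only -5.37 and -5.59 and Brdt at -4.33 and -3.84. Signal over background thus limits the precision of these folds.

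Of 15 tested imprinted genes 7 were well above background on all arrays, and of these 3 rose, 1 fell and 3 did not pass. Gnas rose 3.51-fold, though 1 of its other probes was called lower, Igf2r rose 1.92-fold and Impact 1.77-fold. Zrsr1 fell 1.53-fold. H19 (0.31), Plagl1 (0.40) and Ndn (-0.39) did not pass, but 1 further Plagl1 probe was called lower. Among all tested genes 30.8% rose and 32.7% fell. A further 3 were measured only in the lines and 2 only in the splenocytes, so that their direction was set by the filter. Snrpn, well above background in 1 of 2 splenocyte samples, lay at -5.34 and -6.52 there and at -3.66 and -3.54 in the lines. With the dim value no exact difference or test result is given. Meg3, a long noncoding RNA, was higher by at least 2.87-fold and Peg3, a zinc finger gene, by at least 1.28-fold, both from splenocyte signals not well above background. Sgce, a sarcoglycan, fell at least 20.2-fold and Rasgrf1 at least 4.01-fold, both not well above background in the lines. Cdkn1c, a CDK inhibitor well above background in 1 of 2 lines, lay at -3.08 and -3.09 in the splenocytes and at -6.25 and -6.78 in the lines. For the same reason it is given without a difference or test result.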

How the data were processed

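The submitters' processing notes name Agilent Feature Extraction 9.5, and the file headers its release 9.5.1.1; the array annotation uses mm8. The deposited processed signal is an intensity corrected for background and spatial trends within the array, with no scaling between arrays. Raw spot means and local backgrounds are deposited as intensity too, and per the file headers the other columns used are flags of 0 or 1. The deposited matrix holds the processed intensity times 1 factor per array (1.00, 2.10, 0.961 and 0.820), read from the values.

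Spots with a non-uniformity or population outlier flag were dropped if flagged on at least 1 array (153 probes lost altogether) and log2 values of a probe's spots averaged. Values are log2 minus the log2 75th percentile of the array over non-control spots. Probes well above background on at least 2 arrays were tested with limma 3.58.1 (lmFit, eBayes) in R 4.3.3, two-sided, with Benjamini-Hochberg adjustment over all tested probes, called under 0.05 (prior 2.42 degrees of freedom, prior SD 0.188, 2 residual degrees of freedom). The fit was tried on simulated data in which few probes changed, each by a large amount. That setting is unlike these arrays, so it does not show how reliable the calls here are. Repeated spots of a probe had a median SD of 0.0629 to 0.0719 per array. Gene names were updated through RefSeq accessions, symbols or synonyms for 32993 of 41021 probes. The number of arrays limits the precision.

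The members and lists were chosen with earlier results of these data known. All probes of the members were to be described, and of each related list the genes at its ends, with all readers and removal genes; some of these genes are not reported here, and examples from some lists are fewer. The comparison of probe pairs and the values against dividing-cell markers were added after seeing the data. Alternatives were other scalings, background correction, filters, the deposited matrix, 1 probe per gene name, a variance trend, a replicate block and leaving out each array.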

Additional observations from a re-analysis of the deposited data

How the results depend on the processing

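Over 161 values of the 11 member probes under the alternatives, 149 kept their direction and their side of the threshold, 9 lost a call (all of Dnmt3l), 1 gained one (Mbd2 probe A_52_P347287) and 2 turned sign. The 2 came with centring on the median, at 0.07 for Dnmt3b and 0.03 for Dnmt3a probe A_52_P76146, neither called. That centring includes undetected probes and moved the median difference of all tested probes by 0.41, so that 64.0% of called probes were higher, against 49.9%; quantile normalization moved it by 0.15, a percentile over bright probes by -0.13 and normexp by -0.28. With 1 probe per gene name 1 member was called lower and 11583 of 18316 probes were called in all, because fewer probes were tested. With no filter on dim probes 16220 were called. Without any one array 4 members were called higher and 2 lower, and 13162 to 17021 probes called in all. Among the related lists, centring on the median called no gene lower among donor supply, maintenance partners and repressor complexes (1, 2 and 1 as reported), 2 lower in place of 5 in histone methylation, and 7 higher in place of 4 in the repressor complexes, where quantile normalization and the bright-probe percentile each called 2 lower. Normexp called 1 gene of the reader list higher in place of 3 and 1 maintenance partner lower in place of 2. It also called 1 germline gene lower, where 0 were called lower as reported. T cell markers called higher numbered 3 with quantile normalization and 2 with centring on the median, in place of 1. Of 65 values of probe pairs, chosen after seeing the data, 14 lost their call and none turned sign. The replicate numbers gave no sign of pairing the arrays: deviations of same-numbered arrays correlated at 0.0113 across probes. With the replicate block 16749 probes were called, and Dnmt3l (-0.62, adjusted p = 0.0537) and 1 Dnmt3a pair lost their calls, with no other change among the members. Signal over background limits the precision of the dim probes of Dnmt3l and Mbd2 (A_51_P256337).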
